A study of Mus musculus with 18 samples.

Results

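The genes described here encode translation initiation factors outside the cap-binding eIF4F core, together with kinases that phosphorylate eIF2. They were taken by gene symbol, 40 in all, from the 35976 symbols counted in each library: 5 genes of start codon selection, 5 of eIF2 and of alternative initiator tRNA carriers, 5 of eIF2B, 12 of eIF3, 6 eIF4 accessory genes, 4 of eIF5 and eIF6, and 3 eIF2 kinases. Eif1ad, an eIF1A-domain protein of small subunit maturation, was counted with start codon selection. All 40 symbols were listed and 39 of them passed the filter on low counts, as did 15072 genes in all. The exception was Eif4e3, a cap-binding relative of eIF4E. It had 0 counts in 17 libraries and 0.09 CPM (the TMM-scaled count unit of edgeR) in 1 light polysome library of the control arm, and a count of 0 allows a level of up to 0.0421 to 0.0987 CPM depending on the library.

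The cells were 4T1, a mouse mammary carcinoma line of BALB/c origin with the properties of triple-negative breast cancer. They carried either a hairpin named NSi, the control arm, or a hairpin against Dap5 (shDap5), the other name of Eif4g2, which encodes an eIF4G relative without the eIF4E-binding region. All groups shared the induction with doxycycline at 2 µg/ml for 6 days, and no uninduced cells were among the libraries. PolyA RNA was counted in whole lysate (input), in pooled light polysome fractions and in pooled heavy polysome fractions of a sucrose gradient, with 3 libraries in each of the 6 groups. The labels do not say how many clones or hairpins an arm stands for, nor that the 3 libraries of a group are separate cultures. The p-values therefore describe the spread among libraries, which may be technical.

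Initiation begins when eIF2 bound to GTP delivers initiator methionyl-tRNA to the small ribosomal subunit, where eIF1, eIF1A, eIF3 and eIF5 assemble and the complex scans for a start codon. eIF2B then exchanges GDP for GTP on eIF2, and kinases that phosphorylate the alpha subunit of eIF2 turn eIF2 into an inhibitor of eIF2B. The eIF3 complex is also the contact of DAP5, through its subunit eIF3d, in a form of initiation that does not use eIF4E. mRNAs that begin with an unbroken pyrimidine stretch (TOP mRNAs, among them those of ribosomal proteins, elongation factors and several eIF3 subunits) are known to be shifted on and off polysomes together.

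The start regions of the members were read for such a stretch, because several eIF3 mRNAs varied together between libraries on light polysomes. RefSeq windows of 30 bases (10 before the annotated start and 20 from it on, build GRCm38.p6) were found for 32 of the 40 members. An uninterrupted run of at least 8 C or T bases that covered the annotated start, on the sense strand only, was present in 4 of the 32 (12.5%) and in 1240 of 27025 genes (4.59%). A window shows where RefSeq places the start, not where 4T1 transcripts begin. The 4 members with a run are shown first, with the run in capitals, and 3 members without one follow for contrast. They lie at chr7:108934405-108934434 (plus strand, Eif3f), chr15:79075213-79075242 (plus strand, Eif3l), chr16:20498807-20498836 (plus strand, Eif2b5), chrX:94212632-94212661 (minus strand, Eif2s3x), chr11:100319939-100319968 (plus strand, Eif1), chr5:140419295-140419324 (plus strand, Eif3b) and chr1:37998000-37998029 (plus strand, Eif5b).
Eif3f: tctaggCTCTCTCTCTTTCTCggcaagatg
Eif3l: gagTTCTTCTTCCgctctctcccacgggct
Eif2b5: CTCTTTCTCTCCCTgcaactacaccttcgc
Eif2s3x: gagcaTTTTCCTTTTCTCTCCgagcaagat
Eif1: ggcgtcacaggggcggctatataagtgaat
Eif3b: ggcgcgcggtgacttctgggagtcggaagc
Eif5b: ctgggttcccacctggccggcggctctact
The runs of Eif3f, Eif3l and Eif2s3x are 15, 10 and 16 bases long. That of Eif2b5 is 21 bases long and reaches upstream past the window. In Eif3l and Eif2b5 most of the run lies before the annotated start, outside the annotated mRNA.

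Total counts were 30385863 to 71331978 per library. Eif4g2, the target of the hairpin, was at 799, 760 and 852 CPM in NSi inputs and at 592, 340 and 671 CPM in shDap5 inputs, a difference that did not reach an adjusted p under 0.05, the threshold for a call (log2 change -0.59, SE 0.26, adjusted p = 0.202 by edgeR). On light polysomes it fell by 1.60 on the log2 scale (SE 0.26, adjusted p = 0.00204 by edgeR). On heavy polysomes, where it also fell, the change was -1.45 (SE 0.26, adjusted p = 0.00349). The 5 epithelial carcinoma markers summed to 1750 to 2029 CPM in NSi inputs and 2464 to 3146 CPM in shDap5 inputs. Endothelial markers stayed under 1 CPM in sum, while the 4 macrophage markers reached 20.4 to 60.7 CPM and the 4 fibroblast markers 23.2 to 40.4 CPM over the inputs. The macrophage sum came from Cd68 (10.6 to 50.9 CPM) and Csf1r (2.11 to 12.2 CPM), with Adgre1 and Ptprc at 0.499 CPM at most. The fibroblast sum came from Pdgfra (22.9 to 39.7 CPM), with Pdgfrb, Col1a1 and Dcn each under 1 CPM in the inputs. The part of these markers in the results was not tested.

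Sets of libraries stood apart. Libraries with the same number in both arms deviated together within a fraction (lowest correlation across 10308 genes 0.138 in input, 0.545 on light and 0.527 on heavy polysomes), so values with the number as a block are given where they change a call. Light and heavy libraries with the same number did so too within an arm (lowest correlation 0.520 in NSi and 0.662 in shDap5). The shDap5 inputs also differed among themselves. In shDap5 input 2, 22 of the 39 members were below all NSi inputs, against 5 in shDap5 input 1 and 3 in shDap5 input 3. Over all genes the same shares were 39.8%, 34.2% and 34.7%. Above all NSi inputs were 10 members (25.6%) in shDap5 input 2, 27 (69.2%) in input 1 and 31 (79.5%) in input 3. Over all genes these shares were 36.6%, 45.5% and 46.8%, so inputs 1 and 3 departed from them as well. The part of shDap5 input 2 in the input results was not tested beyond the values given without it.

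In the inputs of the control arm the members spanned a wide range of levels. Per kilobase of exon, the order ran from Eif5a, the hypusinated factor that relieves stalled ribosomes, at 242 ± 14.6 CPM per kb (SD, n = 3), down to Eif3j1 at 0.892 ± 0.0401 CPM per kb. Eif3l (208 ± 5.71 CPM per kb) and Eif3h (188 ± 14.4 CPM per kb) followed Eif5a. The core eIF3 subunits other than Eif3j1 lay within a few-fold of each other, with Eif3b at 136 ± 3.54, Eif3c at 113 ± 3.59 and Eif3m lowest at 48.3 ± 4.42 CPM per kb. Neighbours such as Eif3i (138 ± 7.06 CPM per kb) and Eif1 (139 ± 5.97 CPM per kb) did not differ beyond their spread.

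eIF2 and eIF2B were at lower levels than most of eIF3. The alpha and beta subunits of eIF2, Eif2s1 and Eif2s2, were at 41.5 ± 2.46 and 31.5 ± 2.01 CPM per kb, and the gamma subunit, Eif2s3x, at 4.43 ± 0.0552 CPM per kb. The eIF2B subunits ranged from 7.19 ± 0.372 CPM per kb for Eif2b3 to 37.8 ± 1.04 CPM per kb for Eif2b5. Of the kinases, Eif2ak2 (PKR, activated by double-stranded RNA) was at 15 ± 1.66, Eif2ak1 (HRI, the haem-regulated kinase) at 10.9 ± 0.435 and Eif2ak4 (GCN2, the sensor of uncharged tRNA) at 7.18 ± 0.0386 CPM per kb. Levels of Eif3j1, Eif2s3x, Eif1, Eif1b, Eif1a and Eif1ax are uncertain, because these genes have close copies elsewhere in the genome and the treatment of shared reads is not given in the sources used here. The same holds for Eif4ebp3, 67.3% of whose exon length overlaps another gene on the same strand in the GRCm38 annotation.

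The first comparison asked whether the hairpin against Dap5 went with a change in these mRNAs within each fraction. In each fraction 1 of 39 members was called at an adjusted p under 0.05, and it was Eif2s3x, the GTP-binding gamma subunit of eIF2, which was higher in shDap5. Over all genes tested, 6.95% were called in input, 3.47% on light and 3.95% on heavy polysomes, so the members' count did not stand above the background. The other 38 members were not called in any fraction, and the median change of the 39 was 0.10 in input, 0.05 on light and -0.06 on heavy polysomes (log2 scale; 0.05, -0.01 and 0.01 over all genes).

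Eif2s3x was at 16.3, 16.7 and 16.4 CPM in NSi inputs and at 30.7, 28.0 and 29.8 CPM in shDap5 inputs. On light polysomes it was at 14.7, 12.6 and 13.1 CPM in NSi and at 25.5, 27.2 and 27.5 CPM in shDap5. On heavy polysomes it was at 19.3, 15.6 and 10.4 CPM in NSi and at 33.6, 26.3 and 20.1 CPM in shDap5. The arms did not overlap in any fraction, and on heavy polysomes library 3 was the lowest of both arms. Its log2 change in input was 0.84 with an SE of 0.20 (adjusted p = 0.0139 by edgeR), that on light polysomes 0.99 with an SE of 0.20 (adjusted p = 0.00958) and that on heavy polysomes 0.82 with an SE of 0.20 (adjusted p = 0.0275). In these bulk libraries more cells with the mRNA and more mRNA per cell cannot be told apart. The call in input was lost, at adjusted p-values from 0.052 to 0.061, on leaving out any 1 input library other than shDap5 input 2. On light polysomes it was lost without NSi light 2 (adjusted p = 0.0547), and on heavy polysomes without NSi heavy 2 (0.0825), NSi heavy 3 (0.0695) or shDap5 heavy 1 (0.117). Its Y-linked copy, Eif2s3y, was at 0.18 CPM at most in any library, and reads shared between copies were not followed.

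With the replicate number as a block within a fraction, Eif2s3x remained higher in all 3 fractions (adjusted p at most 0.000155) and more members were called. In input 3 of 39 were called, against 22.1% of all genes: beside Eif2s3x these were Eif2d, an alternative factor that can place tRNA in the ribosome without GTP (log2 change 0.35, adjusted p = 0.0162), and Eif1ad, an eIF1A-domain protein of small subunit maturation (0.50, adjusted p = 0.0494). On light polysomes 3 of 39 were called, against 16.1%, with Eif3f (0.40, adjusted p = 0.0305) and Eif1 (0.33, adjusted p = 0.0467), both higher in shDap5. On heavy polysomes 6 of 39 were called, against 18.3%. There Eif1 was higher (0.52, adjusted p = 0.00393) and Eif2b4 (-0.31), Eif3b (-0.38), Eif6 (-0.36) and Eif2ak1 (-0.29) were lower, at adjusted p-values from 0.0301 to 0.0443. None of these shares stood above the block's own background.

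**Figure D1:**
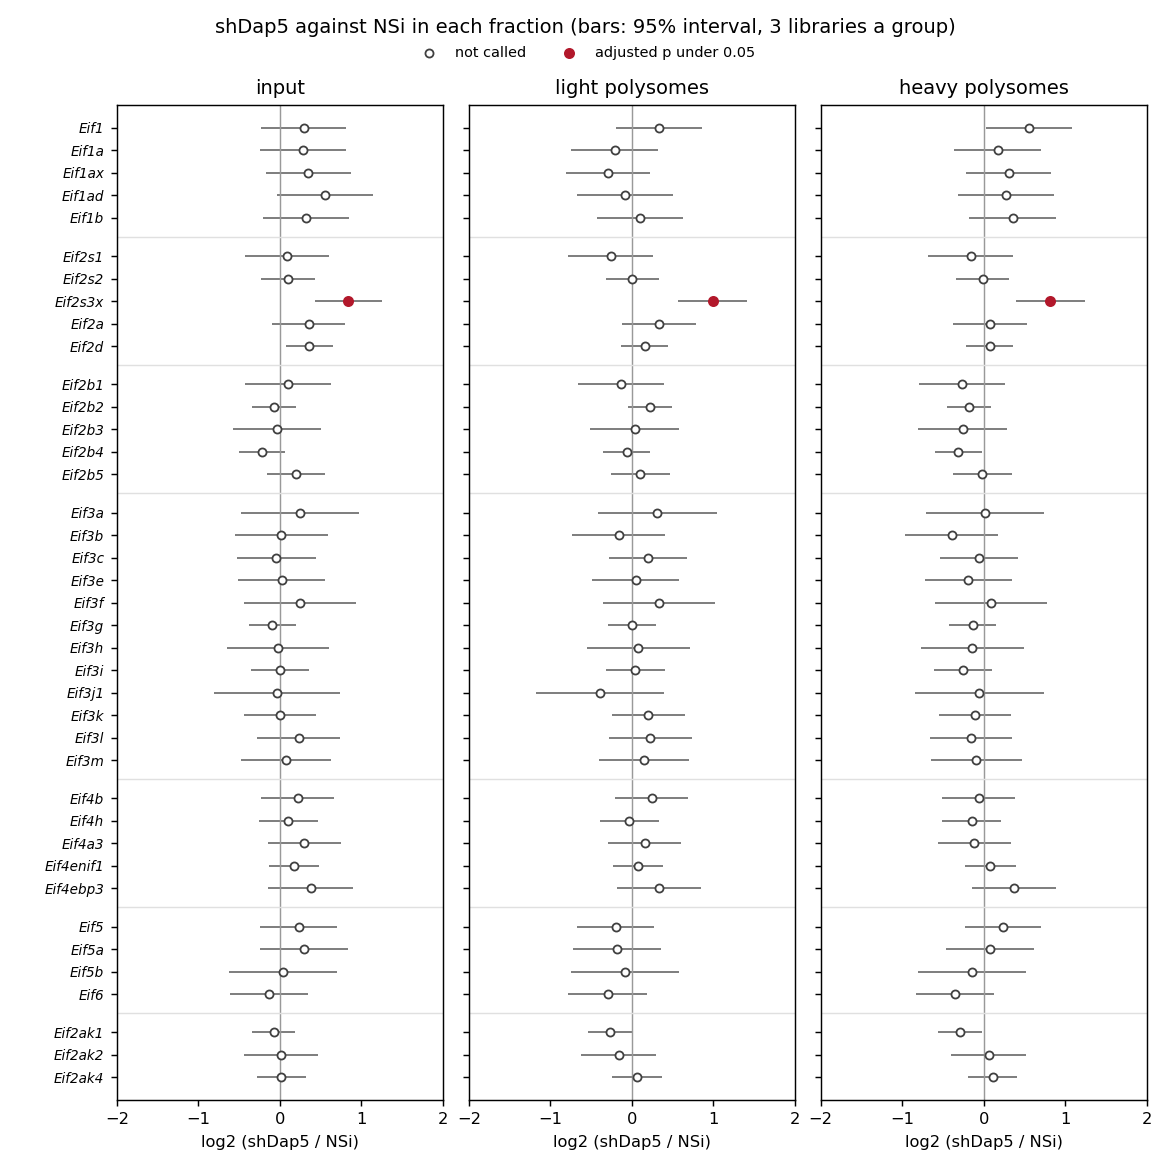
The log2 change of shDap5 against NSi is plotted on the x axis for each of the 39 members tested, by fraction, with 95% intervals from the edgeR fit (3 libraries a group). Filled points passed an adjusted p under 0.05: Eif2s3x at 0.84, 0.99 and 0.82 is the one filled point of each panel.

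Without the block, the genes of start codon selection were above 0 in input for 5 of 5 (0.28 to 0.55, none called), below 0 for 3 of 5 on light polysomes and above 0 for 5 of 5 on heavy polysomes. Eif1, which guards the fidelity of start codon choice, was at 174, 186 and 189 CPM in NSi inputs and at 229, 206 and 236 CPM in shDap5 inputs. The arms did not overlap, yet the log2 change of 0.29 (95% interval -0.24 to 0.81) had an adjusted p of 0.593 in the edgeR fit. On heavy polysomes Eif1 was at 186, 128 and 214 CPM in NSi and at 294, 157 and 323 CPM in shDap5, higher in shDap5 for each of the 3 numbers (0.55, adjusted p = 0.265).

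Without the block no eIF2B subunit was called in any fraction, and all 5 had values below 0 on heavy polysomes (median -0.26, none called). Eif2b4, the delta subunit, was at 104, 83.9 and 74.9 CPM on NSi heavy and at 78.3, 72.0 and 61.8 CPM on shDap5 heavy polysomes. The ranges overlapped, and library 1 was the highest of both arms (log2 change -0.31, adjusted p = 0.245 by edgeR without the block). For the 12 eIF3 genes no call was made by edgeR in any fraction, and none had an unadjusted p under 0.05, with changes from -0.09 to 0.25 in input, and the intervals allowed changes of different size by gene: -0.38 to 0.19 for Eif3g, which binds the mRNA entry side, and -0.48 to 0.97 for the large scaffold subunit Eif3a.

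None of the eIF2 kinases was called in any fraction without the block. Eif2ak1 was at 79.8, 82.4 and 69.5 CPM on NSi heavy polysomes and at 63.3, 67.3 and 58.7 CPM on shDap5 heavy polysomes (-0.29, adjusted p = 0.24 by edgeR). All 3 shDap5 values lay below all 3 NSi values. Eif2ak2 and Eif2ak4 both had a log2 change of 0.02 in input, with 95% intervals of -0.44 to 0.47 and -0.27 to 0.31.

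Genes around the members were read from 4 lists. Of the 14 tested genes that respond to eIF2 phosphorylation, 1 rose and 1 fell in input: Nupr1, a stress-induced chromatin protein (0.98, adjusted p = 0.0235), and Slc7a11, the cystine transporter (-1.35, adjusted p = 0.00396). In all, 10 of the 14 were below 0, with a median of -0.32 against 0.05 over all genes.

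Several of these genes split the shDap5 inputs, and 3 are described here after their values were seen. Ddit3, the stress transcription factor CHOP, was at 62.02, 87.9 and 72.8 CPM in NSi inputs and at 25.1, 99.8 and 23.9 CPM in shDap5 inputs. Trib3, a pseudokinase induced by CHOP and ATF4, was at 44.1, 58.6 and 59.9 CPM in NSi inputs and at 17.5, 58.8 and 17.5 CPM in shDap5 inputs. Atf5, a transcription factor related to ATF4, was at 51.3, 64.7 and 51.2 CPM in NSi inputs and at 18.6, 66.5 and 21.6 CPM in shDap5 inputs. In shDap5 inputs 1 and 3 all 3 genes were below every NSi input, and in shDap5 input 2 they were not. Eif4g2, the target of the hairpin, was at 592 and 671 CPM in shDap5 inputs 1 and 3 and lowest, at 340 CPM, in shDap5 input 2. A link between its level and these genes was not tested. Without shDap5 input 2, a fit chosen after seeing the data, 4 of the 14 were called lower, against 6.50% of all genes: Ddit3 (-1.60, adjusted p = 0.00378), Trib3 (-1.63, adjusted p = 0.00267), Atf5 (-1.47, adjusted p = 5.56e-05) and Slc7a11 (-1.52, adjusted p = 0.0034). Nupr1 was then not called (0.63, adjusted p = 0.098), and the median of the 14 was -0.74. Atf4, the transcription factor made from an mRNA with upstream reading frames, was not called in any fraction. On light polysomes Nupr1 was called higher (1.41) and Slc7a11 lower (-1.02), and on heavy polysomes Nupr1 alone (1.56). Ddit3, Trib3 and Atf5 were called in neither polysome fraction, and the median of the 14 was 0.08 on light and 0.04 on heavy polysomes. Of 16 tested genes of the eIF2 cycle, hypusination and ribosome recycling and of 9 TOP elongation factor genes, none was called in any fraction by edgeR. At an unadjusted p under 0.05 the former list gave 0 genes in each fraction and the latter 1 in input, 1 on light and 0 on heavy polysomes. Of 16 cap-binding and DAP5 partner genes only the target Eif4g2 was called, on light and on heavy polysomes.

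The second comparison asked whether the hairpin shifted members between fractions. In the tests of heavy polysomes relative to input, light polysomes relative to input and heavy relative to light polysomes, 0 of 39 members and 0% of all genes were called by edgeR. DESeq2 also called 0 members in each. At an unadjusted p under 0.05 there were 0, 0 and 1 members, against 295, 320 and 181 of all genes. The 1 member was Eif2b2, the beta subunit of eIF2B, whose heavy-to-light difference was -0.41 (SE 0.18) between arms. In the heavy relative to input difference without the block, 34 of 39 members were below 0, with a median of -0.16 against -0.02 over all genes. All 12 eIF3 genes were among the 34, but with the number as a block within fraction Eif3c (0.006) and Eif3j1 (0.07) were above 0. All 39 values rest on the same 12 libraries, shDap5 input 2 among them.

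The third comparison placed the mRNAs along the gradient. A CPM value is a share of the reads of a fraction, so it says nothing of the amount of RNA in that fraction. In NSi 24 of 39 members differed between heavy and light polysomes: 18 were higher on heavy, against 27.0% of all genes, and 6 were lower, against 25.6%. In shDap5 19 members differed: 15 were higher on heavy, against 24.3% of all genes, and 4 were lower, against 20.2%. The size of this split moved with the scaling. With upper-quartile scaling the NSi counts were 13 higher and 10 lower, and with library totals 14 and 11, while the median of all genes moved from -0.03 to -0.27 and -0.25. In shDap5 both scalings gave 14 higher and 7 lower.

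With the replicate number as a block, 26 members differed in NSi, 20 higher (30.2% of all genes) and 6 lower (28.7%), and 24 in shDap5, 17 higher (27.6%) and 7 lower (23.7%). The members that this added are named with their roles.

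The arms share no library, but same-numbered libraries deviated together across arms, so the tests of the arms are not independent. Of the calls, 17 were shared in direction, which is 70.8% of the NSi calls and 89.5% of the shDap5 calls, against 78.5% and 92.8% over all genes. The same sign was found for 35 of 39 members (89.7%), against 91.7% of all genes. Shared calls higher on heavy numbered 14. The 3 shared calls lower on heavy were Eif1, Eif1b and Eif3f.

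**Figure D2:**
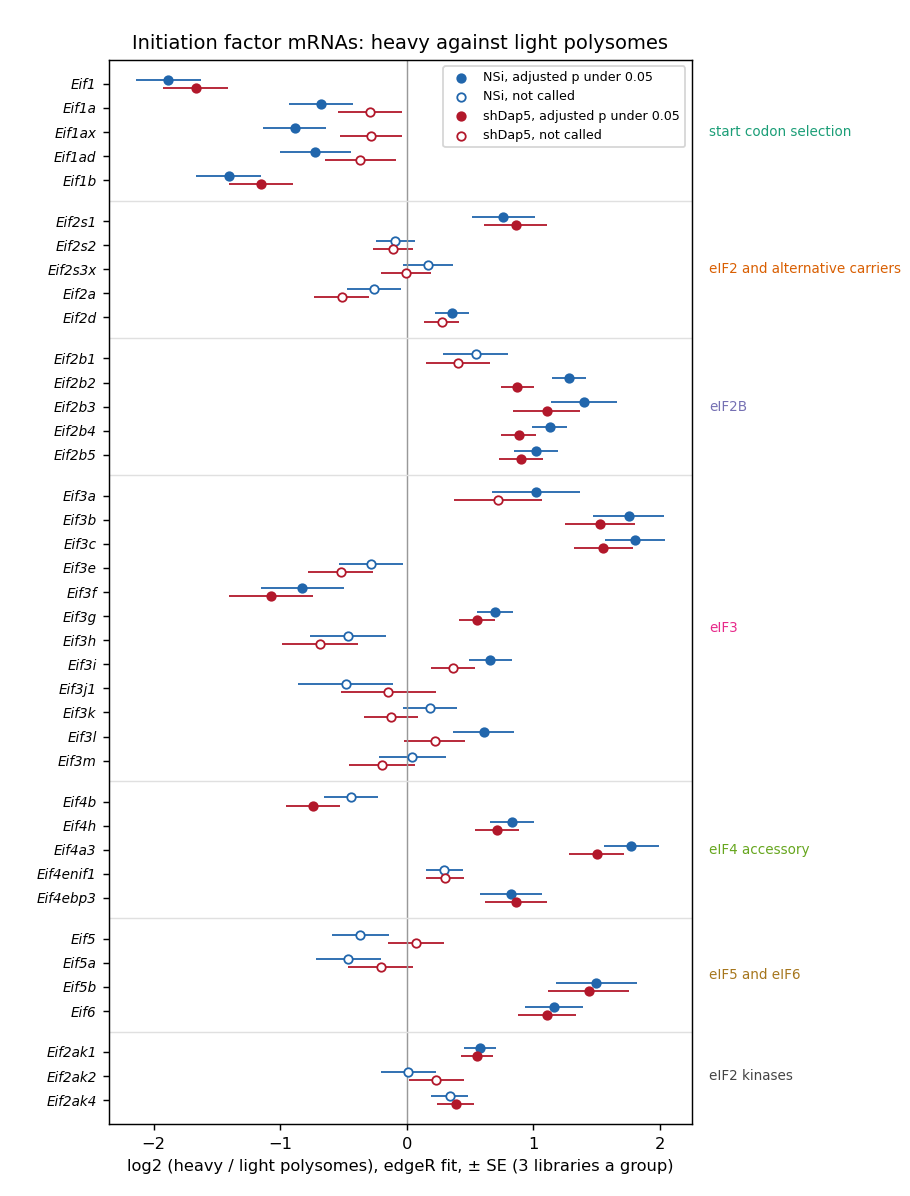
The log2 ratio of heavy to light polysomes is on the x axis for each of the 39 members, grouped by role, in NSi (blue) and shDap5 (red), with the SE of the edgeR fit. Filled points passed an adjusted p under 0.05. The start codon selection genes lie left of 0 (Eif1 at -1.88 in NSi), and the eIF2B genes lie right of it (Eif2b3 at 1.40).

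All 5 genes grouped under start codon selection, Eif1ad among them, were lower on heavy than on light polysomes in NSi, and this count was 5 of 5 under each scaling tried. Over all genes tested 25.6% were called lower. All but Eif1a have coding regions under 600 bases (339 to 510). Of the 1540 genes tested with coding regions that short, 984 were called lower on heavy polysomes in NSi, as were 4 of the 6 members. Eif1 was at 725, 502 and 720 CPM on NSi light polysomes and at 186, 128 and 214 CPM on NSi heavy polysomes. Every light library was above every heavy one, and library 2 was the lowest of both fractions. The log2 difference was -1.88 (SE 0.26, adjusted p = 1.47e-05 by edgeR) in NSi and -1.67 (SE 0.26, adjusted p = 7.78e-05) in shDap5. Its close relative Eif1b was lower on heavy polysomes as well, at -1.41 in NSi and -1.15 in shDap5.

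For eIF1A, a factor that binds the ribosomal A site, and the eIF1A-domain gene Eif1ad, the calls in NSi depended on single libraries. Eif1ax was at 425, 206 and 234 CPM on NSi light polysomes and at 148, 147 and 174 CPM on NSi heavy polysomes. Library 1 of the light fraction was far above the other 2. The log2 difference was -0.88 (adjusted p = 0.00656 by edgeR), and without NSi light 1 it was -0.48 (adjusted p = 0.0798). Eif1a (-0.68) and Eif1ad (-0.72) also lost their calls without that library, at adjusted p-values of 0.255 and 0.206. The call of Eif1a was lost as well without NSi heavy 1 (0.0803), NSi heavy 2 (0.0907) or NSi heavy 3 (0.0502), and that of Eif1ad without NSi heavy 1 (0.103) or NSi heavy 2 (0.109) and with no filter on low counts (0.0791). In shDap5 the 3 genes were not called, with values of -0.28 for Eif1ax, -0.29 for Eif1a and -0.37 for Eif1ad, and the difference between arms was itself not called.

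Of eIF2 and the alternative carriers, Eif2s1 was called higher on heavy polysomes in both arms and Eif2d in NSi alone. Eif2s1, the subunit that the kinases phosphorylate, was at 136, 95.1 and 76.5 CPM on NSi light and at 228, 164 and 130 CPM on NSi heavy polysomes. Within each number the heavy value was above the light one, and the log2 difference was 0.76 (SE 0.25, adjusted p = 0.0153 by edgeR) in NSi and 0.86 (SE 0.25, adjusted p = 0.00959) in shDap5. Without heavy library 1 of the arm the calls of Eif2s1 were lost (adjusted p = 0.101 in NSi and 0.0537 in shDap5). The NSi call was also lost without NSi light 2 (0.0507) or NSi light 3 (0.0782), with upper-quartile scaling (0.0656) and with library totals (0.0617). Eif2d had a difference of 0.36 (adjusted p = 0.0352) in NSi that fell to 0.12 (adjusted p = 0.423) with upper-quartile scaling. It also lost its call without NSi light 2, NSi light 3, NSi heavy 1 or NSi heavy 3, at adjusted p-values from 0.0707 to 0.101. Eif2s2, Eif2s3x and Eif2a, which encodes an alternative carrier of initiator tRNA, were not called in either arm under the scaling used here. With upper-quartile scaling Eif2a was called lower on heavy polysomes in both arms, at -0.51 in NSi and -0.75 in shDap5, and with the replicate block in shDap5 (-0.52, adjusted p = 0.0164).

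The eIF2B genes gave 4 calls of 5 in each arm, all higher on heavy polysomes, and the count was the same under each scaling. Eif2b2 was at 75.1, 81.5 and 82.4 CPM on NSi light and at 189, 187 and 206 CPM on NSi heavy polysomes. Every heavy library was above every light one, with little spread within a fraction. The log2 difference was 1.28 (SE 0.13, adjusted p = 8.65e-07 by edgeR) in NSi and 0.87 (SE 0.13, adjusted p = 6.08e-05) in shDap5. Eif2b5 encodes the catalytic epsilon subunit, and the pyrimidine run in its window is the longest of the members but lies mostly before the annotated start. It was at 145, 127 and 142 CPM on NSi light and at 309, 290 and 245 CPM on NSi heavy polysomes. Again the fractions did not overlap (1.02, SE 0.17, adjusted p = 0.000103). Eif2b3 (1.40) and Eif2b4 (1.13) were called likewise, and Eif2b1, the alpha subunit, was not (0.54, adjusted p = 0.0791). In NSi it was called by edgeR with the replicate block (0.55, adjusted p = 0.00584). Leaving out NSi light 1 (0.83, adjusted p = 0.017) or NSi heavy 2 (0.73, adjusted p = 0.034) also gave the call.

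The 12 eIF3 genes spread to both sides. In NSi 6 were higher on heavy polysomes, 1 was lower and 5 were not called, and in shDap5 the counts were 3, 1 and 8. With the replicate block the NSi counts were again 6 and 1, and those in shDap5 were 5 higher and 3 lower, since Eif3a (0.72, adjusted p = 0.0444) and Eif3i (0.35, adjusted p = 0.0459) were then called higher and Eif3e (-0.52, adjusted p = 0.044) and Eif3h (-0.65, adjusted p = 0.0252) lower. With library totals they were 4 higher and 2 lower in NSi and 3 and 3 in shDap5, and the median of the 12 in shDap5 changed sign with the scaling, from 0.05 to -0.02 (RLE), -0.18 (upper quartile) and -0.14 (library totals). The large subunits Eif3b and Eif3c, which form the core with Eif3a, were among the genes most shifted towards heavy polysomes.

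**Figure D3:**
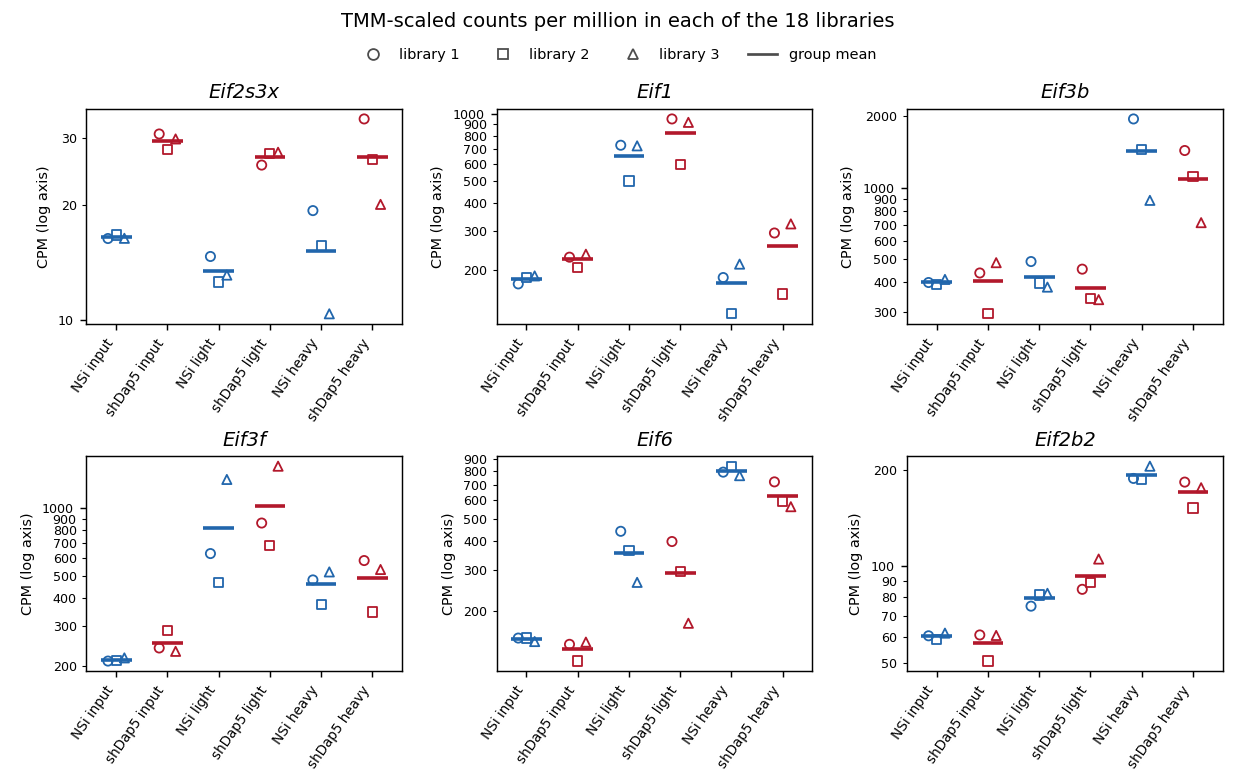
TMM-scaled CPM on a log axis is shown for Eif2s3x, Eif1, Eif3b, Eif3f, Eif6 and Eif2b2 in all 18 libraries, with a marker for each library number and a bar at the mean of 3. Eif1 is highest on light polysomes (502 to 950 CPM), Eif3b on heavy polysomes (714 to 1950 CPM), and Eif3f in light library 3 of both arms (1343 and 1538 CPM).

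Eif3b, the subunit that carries an RNA recognition motif and scaffolds Eif3g and Eif3i, was at 490, 397 and 382 CPM on NSi light and at 1950, 1450 and 886 CPM on NSi heavy polysomes. The fractions did not overlap although heavy library 3 was far below the other 2. The log2 difference was 1.76 (SE 0.28, adjusted p = 5.93e-05 by edgeR) in NSi and 1.53 (SE 0.28, adjusted p = 0.000326) in shDap5. Eif3c was at 222, 212 and 194 CPM on NSi light and at 950, 785 and 461 CPM on NSi heavy polysomes (1.81, SE 0.24, adjusted p = 8.86e-06), and its difference in shDap5 was 1.55. Eif3a was at 325, 404 and 250 CPM on NSi light and at 965, 762 and 259 CPM on NSi heavy polysomes. In library 3 the fractions of Eif3a were nearly equal, and its call (1.02, adjusted p = 0.0204) was lost without NSi heavy 1 (adjusted p = 0.143), NSi heavy 2 (0.0622), NSi light 1 (0.051) or NSi light 3 (0.0845), and with upper-quartile scaling (0.062) or library totals (0.0713).

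Eif3f, one of the deubiquitinase-fold subunits of the octamer, went the other way. It was at 630, 469 and 1343 CPM on NSi light and at 481, 375 and 522 CPM on NSi heavy polysomes. On shDap5 light polysomes it was at 860, 684 and 1538 CPM and on shDap5 heavy polysomes at 586, 346 and 535 CPM. In both arms light library 3 was far above all other libraries. The log2 difference was -0.83 (SE 0.33, adjusted p = 0.0433 by edgeR) in NSi and -1.07 (SE 0.33, adjusted p = 0.0146) in shDap5, and without light library 3 of the arm it lost its call (adjusted p = 0.495 in NSi and 0.126 in shDap5). The call was also lost without any 1 NSi heavy library (adjusted p from 0.0501 to 0.144) and, in shDap5, without heavy library 2 (0.0707). In the inputs Eif3f was even, at 210, 211 and 217 CPM in NSi and 240, 286 and 232 CPM in shDap5.

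Of the smaller eIF3 subunits, Eif3g was called higher on heavy polysomes in both arms (0.70 in NSi and 0.56 in shDap5). Without the block Eif3i (0.66) and Eif3l (0.61) passed in NSi and not in shDap5 (0.37 and 0.22). Eif3l lost its call without NSi heavy 1, NSi heavy 2, NSi light 1 or NSi light 2 (adjusted p from 0.0585 to 0.201) and with each other scaling (0.0592 to 0.198). Eif3e, Eif3h, Eif3j1, Eif3k and Eif3m were not called in either arm without the block. With upper-quartile scaling Eif3e was called lower on heavy polysomes in shDap5 (-0.76). With library totals Eif3h was called lower on heavy polysomes in both arms (-0.67 in NSi and -0.87 in shDap5).

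Many eIF3 mRNAs stood apart in library 3 of the light polysomes. On light polysomes library 3 was the highest of 3 in both arms for 7 of the 12 eIF3 genes (Eif3f, Eif3g, Eif3h, Eif3i, Eif3k, Eif3l and Eif3m), against 21.6% of all genes tested. Eif3a, Eif3b and Eif3c were the lowest in library 3 in both arms, against 19.8% of all genes. Eif3h, for example, was at 496, 349 and 841 CPM on NSi light and at 449, 431 and 905 CPM on shDap5 light polysomes. The 7 raised genes hold both eIF3 members whose windows carry a pyrimidine run across the annotated start, Eif3f and Eif3l. Windows for Eif3g, Eif3k and Eif3m had none, and no window was found for Eif3h and Eif3i. The other members with a run, Eif2b5 and Eif2s3x, were not highest in light library 3 of both arms. Eif2b2 and Eif4b, whose windows had no such run, were highest there in both arms. Of 9 elongation factor and other TOP genes tested, 7 were highest in light library 3 of both arms, among them Eef1a1 and Eef2. On heavy polysomes library 3 was the lowest of 3 in both arms for 16 of 39 members, against 24.0% of all genes, and these included all 3 kinases. What sets library 3 apart was not tested.

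**Figure D4:**
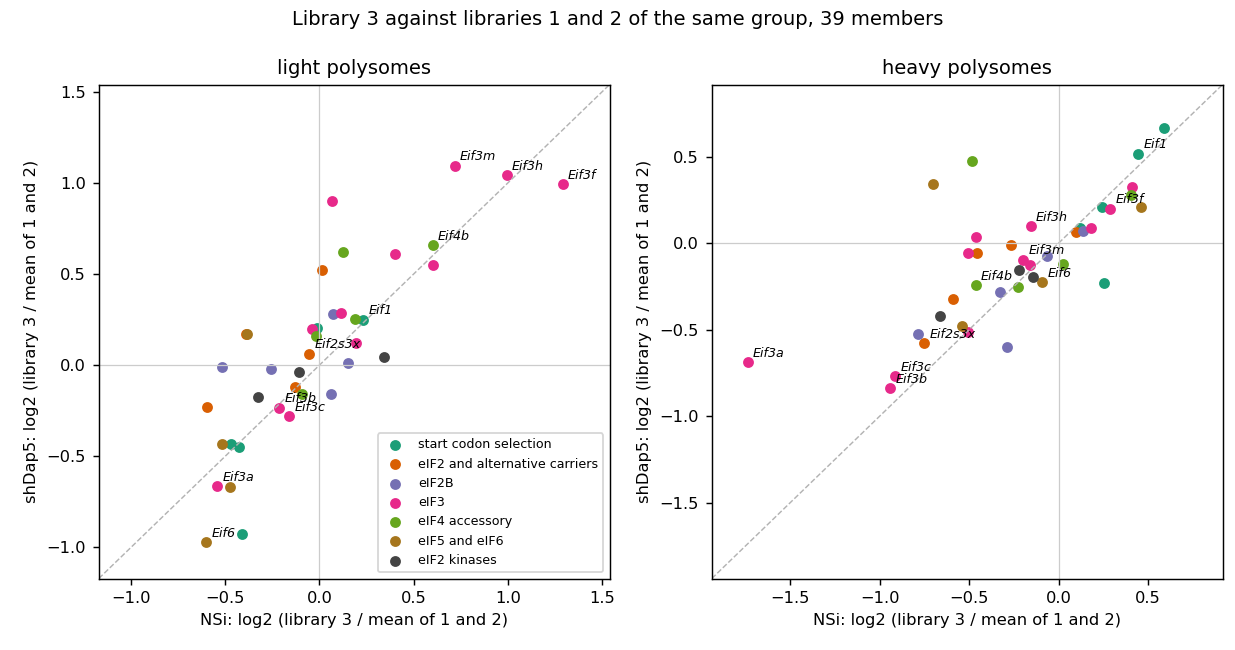
Each point is 1 of the 39 members, with the log2 ratio of library 3 to the mean of libraries 1 and 2 in NSi on the x axis and in shDap5 on the y axis, for light (left) and heavy (right) polysomes; the dashed line marks equal values. Eif3f (1.29 and 0.99) and Eif3h (0.99 and 1.04) lie at the upper right on light polysomes, and Eif3b (-0.94 and -0.84) at the lower left on heavy polysomes.

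Among the eIF4 accessory genes 3 were called higher on heavy polysomes in both arms. Eif4a3, an eIF4A relative that belongs to the exon junction complex, was at 79.9, 59.1 and 79.3 CPM on NSi light and at 285, 210 and 252 CPM on NSi heavy polysomes. The fractions did not overlap in either arm (1.77, SE 0.22, adjusted p = 4.92e-06 by edgeR in NSi and 1.50 in shDap5). Eif4h, a cofactor of the eIF4A helicase, had differences of 0.83 and 0.71, and Eif4ebp3, a translational repressor that binds eIF4E, of 0.82 and 0.86. The NSi call of Eif4ebp3 was lost without NSi heavy 1 (adjusted p = 0.0915) and with upper-quartile scaling (0.0552), which left 2 of the 3. Its values are uncertain in both arms, since 67.3% of its exon length overlaps another gene on the same strand and the counting rule is not given. Eif4b, the other helicase cofactor, was at 739, 761 and 1137 CPM on NSi light and at 757, 668 and 517 CPM on NSi heavy polysomes. Its difference of -0.44 was not called in NSi (adjusted p = 0.089), though it was with upper-quartile scaling (-0.69, adjusted p = 0.0105) and library totals (-0.66, adjusted p = 0.00866). In shDap5 it was called at -0.74 (adjusted p = 0.00959) but not without shDap5 light 3 (adjusted p = 0.0836). Eif4enif1, the shuttling protein that carries eIF4E into the nucleus, was not called in either arm (0.30 in both).

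Eif5b and Eif6 were higher on heavy polysomes, while Eif5 and Eif5a were not called under the scaling used here. Eif5b, the GTPase of subunit joining, was at 197, 117 and 120 CPM on NSi light and at 670, 269 and 288 CPM on NSi heavy polysomes. Library 1 was the highest of both fractions, and the log2 difference was 1.50 (SE 0.32, adjusted p = 0.000849 by edgeR) in NSi and 1.44 in shDap5. Eif6, which keeps the large subunit from joining too early, was at 441, 364 and 266 CPM on NSi light and at 793, 841 and 766 CPM on NSi heavy polysomes. The fractions did not overlap (1.16, SE 0.23, adjusted p = 0.000448 in NSi and 1.11 in shDap5). Eif5a was at 2723, 2439 and 1859 CPM on NSi light and at 1367, 1654 and 2079 CPM on NSi heavy polysomes, with library 3 lowest on light and highest on heavy polysomes (-0.46, adjusted p = 0.138). With upper-quartile scaling Eif5a and Eif5, the GTPase activator of eIF2, were called lower on heavy polysomes in NSi (-0.69 and -0.61).

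Of the kinases, Eif2ak1 was higher on heavy polysomes in both arms (0.58 in NSi, adjusted p = 0.00101 by edgeR, and 0.56 in shDap5). Eif2ak4 was called in shDap5 (0.39, adjusted p = 0.0371) and not in NSi (0.34, adjusted p = 0.0557), and the call was lost with upper-quartile scaling (adjusted p = 0.426) and without shDap5 heavy 2 (0.161), shDap5 light 1 (0.12) or shDap5 light 3 (0.0668). With the replicate block Eif2ak4 was called in NSi as well (0.34, adjusted p = 0.0313). Eif2ak2 was not called, at 0.01 in NSi.

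Coding length moved with the ratio of heavy to light polysomes. Across the 39 members Pearson's r between log2 coding length and the log2 ratio was 0.52 and Spearman's rho 0.44 in NSi, and 0.45 and 0.38 in shDap5. These are descriptions across genes that share libraries, and over 12585 genes the values were 0.42 and 0.39 in NSi and 0.39 and 0.36 in shDap5. The 6 members with coding regions under 600 bases had a median ratio of -0.80 in NSi, where all genes of that length had -1.07. Eif4ebp3 (303 bases) was the short member above 0, but its value is uncertain, since 67.3% of its exon length overlaps another gene on the same strand. The 7 members of 2000 bases or more, Eif3a, Eif3b, Eif3c, Eif5b, Eif2b5, Eif4enif1 and Eif2ak4, had a median of 1.02, where all genes of that length had 0.43.

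**Figure D5:**
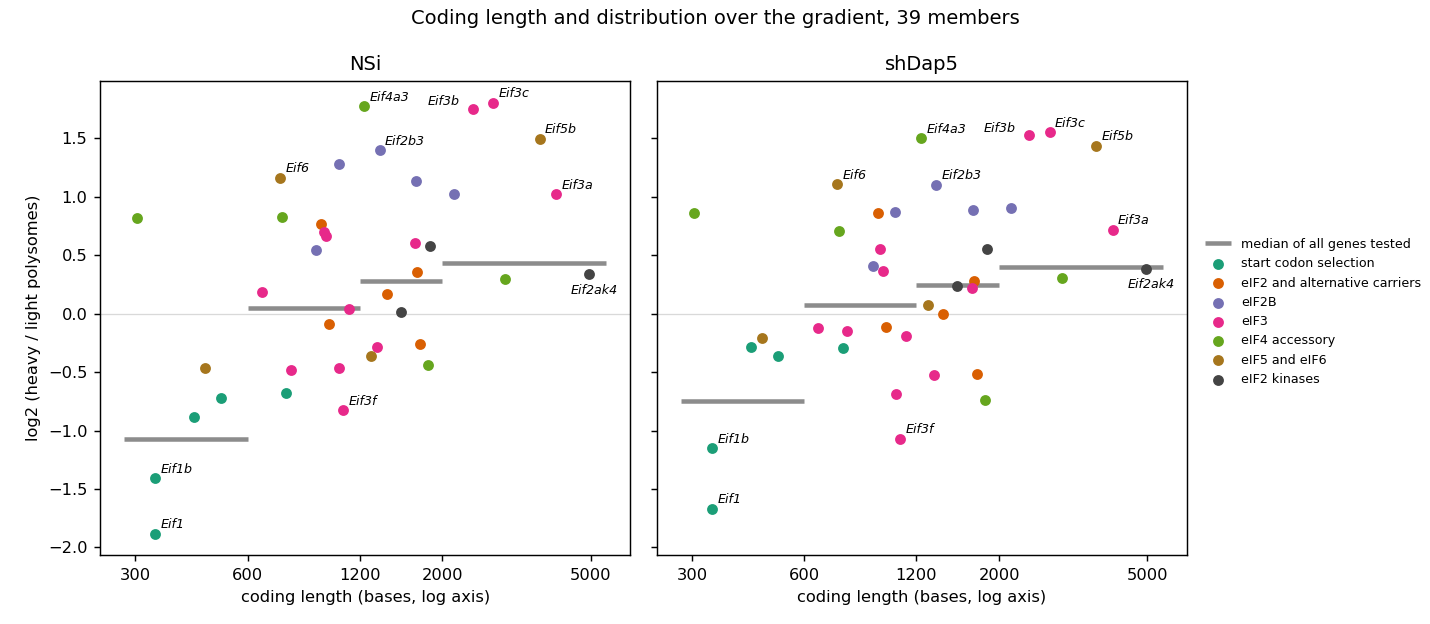
Coding length in bases (log axis) is plotted against the log2 ratio of heavy to light polysomes for the 39 members in NSi (left) and shDap5 (right); grey bars give the median of all genes tested in each length range. Eif1 and Eif1b (339 bases) lie lowest in NSi at -1.88 and -1.41, and the long Eif3b, Eif3c and Eif5b lie between 1.50 and 1.81.

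The last comparison set heavy polysomes against input in the control arm. Of the 39 members 23 were called: 20 were higher on heavy polysomes, against 26.4% of all genes, and 3 were lower, against 20.2%. With library totals the counts were 14 higher and 7 lower, and the median of all genes moved from 0.03 to -0.41. Polysome fractions also held less of the nuclear RNAs Malat1 and Neat1, which summed to 601 to 961 CPM in NSi inputs and 49.2 to 58.8 CPM on NSi heavy polysomes, and their part in these ratios was not tested.

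Eif6 had the largest difference of the members, at 153, 153 and 148 CPM in NSi inputs and 793, 841 and 766 CPM on heavy polysomes (2.40, SE 0.24, adjusted p = 6.47e-07 by edgeR). All 5 eIF2B genes were called higher on heavy polysomes, from 0.79 for Eif2b1 to 1.68 for Eif2b2, though with library totals the count was 3 of 5. Without NSi heavy 1 Eif2b1 (adjusted p = 0.0971) and Eif2b3 (0.0728) lost their calls, and Eif2b1 did so without NSi input 2 (0.0507) and with upper-quartile scaling (0.0666). Of eIF3, 7 of 12 were higher and none lower, among them Eif3g and Eif3i at 1.77 and Eif3f at 1.11. With the replicate block Eif3h was called higher as well (0.74, adjusted p = 0.0121 by edgeR), and so it was with only the groups compared (0.65, adjusted p = 0.0124). The block assumes that same-numbered libraries deviate together, which NSi inputs and NSi heavy polysomes did not (correlations 0.102, -0.158 and -0.319). Eif3f was thus higher on heavy polysomes than in input and lower there than on light polysomes, the former not called with library totals (0.67, adjusted p = 0.0812). Eif2d stood at 61.9, 58.7 and 63.9 CPM in NSi inputs and 175, 154 and 175 CPM on NSi heavy polysomes (1.45, SE 0.14, adjusted p = 4.29e-07). Eif5a was called higher too, at 538, 605 and 584 CPM in NSi inputs and 1367, 1654 and 2079 CPM on NSi heavy polysomes. So were Eif4a3, Eif4h, Eif4ebp3 and Eif5b. Eif5b kept its call in 9 of 15 alternative runs. It was lost, for example, without NSi heavy 1 (0.40, adjusted p = 0.244 by edgeR) and with library totals (0.49, adjusted p = 0.174).

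The 3 members lower on heavy polysomes than in input were Eif5 (-0.72, adjusted p = 0.0141 by edgeR), Eif2ak2 (-0.87, adjusted p = 0.00345) and Eif2ak4 (-0.65, adjusted p = 0.00125). Eif5 was at 447, 457 and 499 CPM in NSi inputs and at 315, 319 and 218 CPM on NSi heavy polysomes. The fractions did not overlap, heavy library 3 was the lowest, and without it the call was lost (-0.56, adjusted p = 0.0718). Eif2ak4 was at 52.5, 52.0 and 51.9 CPM in NSi inputs and at 31.4, 37.1 and 31.0 CPM on NSi heavy polysomes, with no overlap. Eif2ak2 was at 72.2, 57.9 and 63.9 CPM in NSi inputs and at 46.0, 34.8 and 25.6 CPM on NSi heavy polysomes, where library 3 was again the lowest. Eif2ak1 went the opposite way to the other 2 kinases, from 48.4, 45.0 and 48.1 CPM to 79.8, 82.4 and 69.5 CPM (0.71, adjusted p = 0.000195; with library totals 0.27, adjusted p = 0.081). The genes of start codon selection gave no call between heavy polysomes and input in the main fit, with Eif1 at -0.06. By edgeR with the replicate block Eif1ax was called higher (0.53, adjusted p = 0.0341), although same-numbered input and heavy libraries did not deviate together. With only the groups compared Eif1ax (0.45, adjusted p = 0.0176) and Eif1ad (0.33, adjusted p = 0.0485) were called higher. With library totals Eif1a was called lower (-0.68, adjusted p = 0.0277).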

How the data were processed

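PolyA RNA of 18 libraries was counted by gene symbol. The authors deposited raw counts, 1 table per library, aligned with Bowtie to mm9 per the submitters' processing notes; which counter, annotation and strand setting were used is not given in the sources used here. The members, the gene lists and the tests were chosen with earlier results of these data known.

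Counts were tested with edgeR 4.0.16 in R 4.3.3 (quasi-likelihood F test, two-sided, robust, TMM scaling, filterByExpr minimum count 10, minimum total 15). The 18 libraries entered 1 fit with a mean for each group (12 residual degrees of freedom, common biological coefficient of variation 0.227). P-values were adjusted by Benjamini-Hochberg over the 15072 genes tested, and a gene is called where the adjusted value is under 0.05. TMM factors also scale the CPM values. The SE was taken as the log2 change over the root of F. Limits from counts of 0 use 3 counts and cover counting error only. Libraries of a group all differed by more than sampling noise (lowest chi-square over its degrees of freedom 9.57). The fit was tested on simulated data.

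Every member is accounted for by role. Values per library are given for part of the members called in a comparison, of those with the smallest p-values, and of those that library 3 or shDap5 input 2 moved. The last were chosen after their values were seen. Surrounding genes came from 4 lists: cap-binding and DAP5 partners, eIF2 cycle with hypusination and recycling, eIF2 phosphorylation response, and TOP elongation factors. Lymphocyte, adipocyte and red cell markers were at or under 0.0936 CPM in sum in every library.

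Replicate numbers come from the titles. Correlations of deviations from group means, over genes averaging 5 CPM or more on a log2(CPM + 0.5) scale, were over 0.1 for every pair between arms within a fraction (number as a block within fraction) and between light and heavy polysomes within an arm (at least 0.52), but not between input and polysomes. Alternatives were other scalings, no filter, DESeq2 1.42.0, only the groups compared, blocks, and leaving out libraries. Exon and coding lengths and overlaps came from GENCODE (GRCm38), start windows from RefSeq.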

Additional observations from a re-analysis of the deposited data

How the results depend on the processing

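The direction of every member's log2 change that was called kept its sign under each alternative run. With the replicate block within fraction, members called for shDap5 against NSi numbered 3 in input, 3 on light and 6 on heavy polysomes, and all genes called went from 1047 to 3330 (input), 523 to 2431 (light) and 595 to 2765 (heavy). An additive replicate block over all fractions gave 1, 1 and 1 members (1798, 1013 and 1122 genes), 0 in each relative comparison, and 26, 24 and 25 in NSi heavy against light, shDap5 heavy against light and NSi heavy against input; the block changed no count of members by over 1.5 times there.

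With only the groups compared in the fit, the members called were 2 in input and 0 on heavy polysomes, where Eif2s3x had an adjusted p of 0.379, and all genes called were 2218, 219 and 56. Leaving out 1 library gave 0 to 2 members in input and 0 to 1 in either polysome fraction, and the 2 without shDap5 input 2 were Eif2s3x and Eif2d. Genes called then ran from 486 to 1712 in input, with the highest count without shDap5 input 2; on light polysomes they fell to 218 without NSi light 2 and on heavy polysomes to 252 without NSi heavy 2. Without shDap5 input 2, 9 genes were called in heavy relative to input and 8 in light relative to input, none of them members. Leaving out both libraries numbered 3 on light polysomes, an alternative chosen after seeing the data, gave 0 members and 123 genes there; leaving out both on heavy polysomes gave 284 genes. DESeq2 called 995 genes on light and 1050 on heavy polysomes and the same counts of 1 member in each fraction. The cause of these differences was not tested, beyond the smaller number of libraries where some were left out.

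Depth was not limiting for the 39 members tested, whose lowest value in any library was 2.53 CPM; it limits Eif4e3. With 3 libraries a group, the SE of a member's log2 change between arms ranged from 0.13 to 0.38.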
